A study of Rattus norvegicus with 18 samples.

Results

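The genes described here encode 7 proteins of neurite growth and axon guidance: pleiotrophin (Ptn), its receptor phosphatase (Ptprz1), the guidance cue Slit3, the matrix protein F-spondin (Spon1), N-cadherin (Cdh2), contactin 2 (Cntn2) and glia maturation factor beta (Gmfb). They were chosen by name for these roles and are 7 of the 4736 genes that the rat arrays could name. All 7 were also in the study's own lists of nerve-related genes, which were drawn from an experiment that holds these arrays, so their changes here are not independent evidence. Female Sprague-Dawley rats had a closed mid-shaft fracture of the femur, held by an intramedullary rod, at 6 weeks (young), 26 weeks (adult) or 52 weeks (older) of age. The middle of the femur was collected 3 days or 1, 2, 4 or 6 weeks later, and sham rats taken at the time of fracture gave the no-fracture (intact) femora. There were 18 arrays, 1 for each age at each of the 6 times, and each read RNA pooled from 2 rats. Because callus, cortical bone and marrow were extracted as a whole, in all results below fewer cells of a type and less RNA per cell cannot be told apart.

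Growing neurites are steered by secreted cues, by receptors that read them, and by adhesion molecules that hold the growth cone to its path. Pleiotrophin is a heparin-binding growth factor that binds the chondroitin sulfate chains of Ptprz1 and inhibits its phosphatase activity. Slit proteins bind Robo receptors and repel axons, F-spondin is laid down in the floor plate of the embryonic spinal cord, and N-cadherin and contactin 2 are cell surface adhesion molecules. Several of these proteins are also made outside nerves. Pleiotrophin is abundant in cartilage and bone matrix, and N-cadherin joins osteoblasts and condensing mesenchymal cells. Bone carries sensory and sympathetic nerve fibres, most densely in the periosteum, but the neuronal cell bodies lie outside it, so mRNA from a bone segment comes largely from its other cells.

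RefSeq promoter sequences of the rat build GRCr8 were available for 4 of the 7 genes (Ptn, Slit3, Cntn2 and Gmfb). The 250 bases before an annotated start are shown for Ptn and Slit3, which were higher after fracture, and for Cntn2, which was lower. Genes of opposite course can so be set side by side. The Slit3 window ends just before the gene span given below. The Ptn window lies inside its gene span and the Cntn2 window partly so, which places their starts within the span. Capitals mark matches, on either strand, to the AP-1 motif TGANTCA, the Sp1 motif GGGCGG, the CCAAT box CCAAT, the TATA box TATAAA and the E-box CACGTG.
Ptn (chr4:66342333-66342582, minus strand): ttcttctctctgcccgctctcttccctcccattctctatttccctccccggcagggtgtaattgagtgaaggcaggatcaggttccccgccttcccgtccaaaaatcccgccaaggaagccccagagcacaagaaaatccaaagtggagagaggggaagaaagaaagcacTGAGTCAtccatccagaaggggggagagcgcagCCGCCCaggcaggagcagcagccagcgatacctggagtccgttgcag
Slit3 (chr10:20075679-20075928, plus strand): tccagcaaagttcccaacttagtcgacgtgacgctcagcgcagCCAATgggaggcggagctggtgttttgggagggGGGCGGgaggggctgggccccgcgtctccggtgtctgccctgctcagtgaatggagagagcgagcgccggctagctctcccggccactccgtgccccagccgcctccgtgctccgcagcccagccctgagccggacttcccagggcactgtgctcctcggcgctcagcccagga
Cntn2 (chr13:46528026-46528275, minus strand): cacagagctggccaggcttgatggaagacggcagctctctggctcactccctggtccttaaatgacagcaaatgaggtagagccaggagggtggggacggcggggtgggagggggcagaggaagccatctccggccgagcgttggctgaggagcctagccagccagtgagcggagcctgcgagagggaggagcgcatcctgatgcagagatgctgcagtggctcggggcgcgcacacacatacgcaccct
The Ptn window held 1 AP-1 match, beginning 80 bases before the start, and 1 Sp1 match. The Slit3 window held 1 CCAAT box and 1 Sp1 match, and the Cntn2 window held no match to any of the 5 motifs. Gmfb, not printed, held 1 E-box. Among 33469 promoter windows of this length, 6.34% held the AP-1 motif, 30.5% the Sp1 motif, 34% the CCAAT box, 12.9% the TATA box and 5.59% the E-box. These are matches of letters and say nothing about binding.

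Signals are in arbitrary units after every array was scaled to the same trimmed mean (500.7 to 500.8), so each value is relative to the rest of its array and levels of different genes cannot be set against each other. The median signal of an array was 131.9 to 164.1. Signals under 20 were set to 20 before log2 was taken, which applied to 12.3% to 20.3% of probe sets per array. Markers of several tissues moved with fracture. The summed signal of 11 fibrous matrix genes was 49680 to 82436 on the fractured arrays, against 7093 (older), 11899 (adult) and 38514 (young) on the intact arrays, and 11 of 11 of them were called higher at 3 days, 1, 2 and 4 weeks. The summed signal of 7 cartilage genes was 2621 to 22895 on the fractured arrays and 289.3 to 2593 on the intact arrays, with Col10a1 below 20 on the adult and older intact arrays. The summed signal of 7 erythroid genes was 4045 to 45099 at 3 days to 2 weeks and 69116 to 137216 on the intact arrays. The 12 measured neuronal markers summed to 893.3 to 1310 on the fractured arrays and 1000.4 to 1524 on the intact arrays, and Syt1, a synaptic vesicle protein, was below 20 on all 18 arrays. The 11 skeletal muscle genes summed to 31730 to 44714 at 3 days and 116342 to 135429 on the intact arrays, so muscle RNA was present. The 9 Schwann cell markers summed to 2831 to 5099 on the fractured arrays and 2953 to 3388 on the intact arrays. The actin 3'/5' ratio, a sign of RNA quality, was 1.48 to 1.9 at 3 days to 4 weeks and 1.89 to 2.72 at 6 weeks, against 2.1 to 2.61 on the intact arrays. The part of these shifts in the results below was not tested, except where a fit with the actin ratio is given.

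After fracture most of the 7 genes were higher and Cntn2 was lower. A gene was called when its adjusted p (limma, Benjamini-Hochberg over 8740 probe sets, additive terms for time and age) was below 0.05. At 3 days all 7 genes were called, 6 higher and 1 lower, where 39.3% of all probe sets were called (18.9% higher and 20.4% lower). At 1 week the count was again 6 higher and 1 lower, where 35.8% of all probe sets were called (18% higher and 17.8% lower). At 2 weeks 5 were higher and 1 lower (32.8% of all called, 16.1% higher and 16.8% lower), and at 4 weeks 4 were higher and 1 lower (21.2% of all called, 11.5% higher and 9.7% lower). At 6 weeks 3 were higher and 2 lower (15.4% of all called, 8.34% higher and 7.11% lower). The median log2 change of the 7 genes was 1.77 at 3 days, 2.25 at 1 week, 1.7 at 2 weeks, 1.7 at 4 weeks and 1.27 at 6 weeks, while that of all probe sets lay between -0.08 and -0.01. The 5 comparisons share the same 3 intact arrays, and the 3 ages stand in as replicates. With age as a term of the fit, p-values set each change against how far the ages differ in their course over time. The counts changed when an age was left out, and so did those over all probe sets (3437, 3126, 2868, 1855 and 1350 with all ages). Without the young rats 6 genes were called at every time, of 2776, 2684, 2458, 2011 and 1636 probe sets. Without the adult rats it was 2, 2, 1, 0 and 0 at the 5 times in order, of 1742, 1051, 889, 37 and 57. Without the older rats it was 2, 3, 1, 0 and 0, of 1844, 1189, 884, 111 and 46. With the actin ratio as a covariate the counts were 2 at 3 days, 2 at 1 week, 1 at 2 weeks, 1 at 4 weeks and 5 at 6 weeks. Over all probe sets that fit called 1181, 1022, 679, 180 and 1205. Cntn2 (log2 change -2.6, adjusted p 0.003) and Gmfb (1.73, adjusted p 0.034) were the genes called at 3 days with this covariate. Ptn (2.61), Slit3 (2.89) and Cdh2 (2.93) had changes of similar size that were not called.

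**Figure D1:**
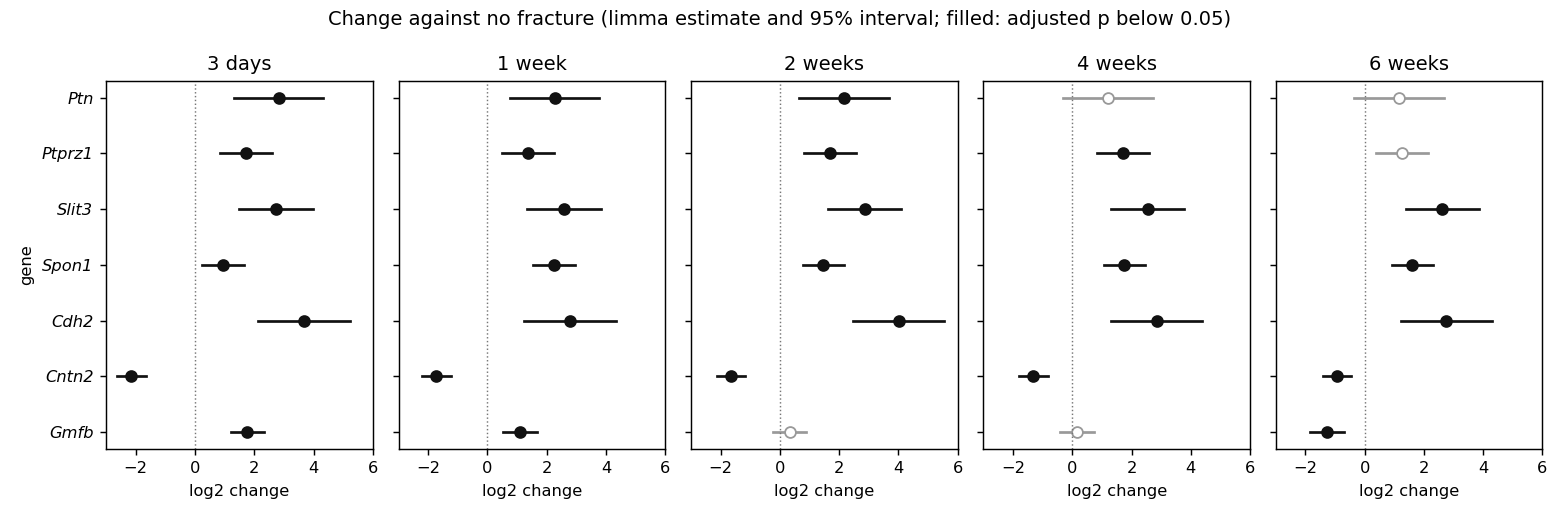
Log2 change of each of the 7 genes against no fracture (horizontal axis) at the 5 times after fracture, as the limma estimate with its 95% interval over 18 arrays. Filled black points have an adjusted p below 0.05 and open grey points do not. Cntn2 lies left of 0 at all 5 times, between -2.15 and -0.94, and Gmfb is at 1.77 at 3 days and -1.27 at 6 weeks.

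Ptn, the ligand of the group (chromosome 4, 66260764 to 66342614, GRCr8), was highest early. In young rats its signal was 995.9 with no fracture and 1709, 786.1, 1446, 825.2 and 353.9 at 3 days, 1, 2, 4 and 6 weeks. In adult rats it was 176.9 with no fracture and 1972, 1598, 962.7, 439.7 and 653.1 at the same times. In older rats it was 93.7 with no fracture and 1716, 1469, 1082, 575.0 and 808.6. The intact femur of young rats lay above its own values at 1, 4 and 6 weeks, whereas the adult and older rats had their lowest value with no fracture. At 3 days the 3 arrays lay above the 3 intact arrays, and at all 4 later times the groups overlapped because of the young intact array. Ptn averaged 1799 ± 150 at 3 days and 422 ± 499 with no fracture (SD, n = 3 each). The log2 change was 2.82 (SE 0.69, adjusted p 0.0077) at 3 days, 2.27 (adjusted p 0.025) at 1 week and 2.17 (adjusted p 0.033) at 2 weeks. At 4 and 6 weeks it was 1.22 and 1.17 with adjusted p of 0.23 and 0.28.

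Ptprz1, the receptor phosphatase that pleiotrophin binds (chromosome 4, 52363006 to 52560905), was higher through 4 weeks. Its signal in young rats was 279.4 with no fracture and 463.9, 577.9, 417.6, 462.0 and 238.7 at the 5 fractured times. Adult rats had signals of 71.6 with no fracture and 252.7, 219.2, 288.5, 286.4 and 244.3. Older rats had signals of 49.4 with no fracture and 302.1, 135.8, 282.0, 254.2 and 238.2. Young rats had the highest signal with no fracture and from 3 days to 4 weeks, and by 6 weeks the 3 ages lay between 238.2 and 244.3. The log2 change of Ptprz1 was 1.72 (SE 0.4, adjusted p 0.0059) at 3 days, 1.37 (adjusted p 0.021) at 1 week, 1.7 (adjusted p 0.008) at 2 weeks and 1.7 (adjusted p 0.014) at 4 weeks, and 1.27 (adjusted p 0.054) at 6 weeks. Only at 2 weeks did the 3 fractured arrays all lie above the young intact array. A second probe set of Ptprz1 was below 20 on 15 of 18 arrays, with a highest signal of 36.6, and was called at none of the 5 times (adjusted p 0.34 to 1). The rise of Ptprz1 therefore rests on 1 probe set.

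Slit3, a secreted repellent cue (chromosome 10, 20075929 to 20660704), was near the floor in the adult and older intact femora and at a steady level after fracture. Its signal in young rats was 247.1 with no fracture and 387.1, 385.3, 526.7, 358.3 and 391.1 at the 5 fractured times. The adult rats had 30.3 with no fracture and 359.4, 336.3, 425.9, 427.9 and 334.7. The older rats had 25.0 with no fracture and 397.4, 311.6, 316.3, 242.5 and 327.5. All fractured arrays but the older 4-week array (242.5) lay above the highest intact array (247.1). The log2 change of Slit3 was 2.74 (SE 0.56, adjusted p 0.0029) at 3 days, 2.58 (adjusted p 0.0047) at 1 week, 2.86 (adjusted p 0.0032) at 2 weeks, 2.54 (adjusted p 0.011) at 4 weeks and 2.61 (adjusted p 0.012) at 6 weeks. No pair of neighbouring fractured times in the order of Slit3 levels differed (adjusted p 0.98 to 1), so no decline by 6 weeks was detected. With a floor of 100 the change at 3 days was 1.49 (adjusted p 0.0011), still called.

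Cdh2, which joins cells through calcium-dependent adhesion (chromosome 18, 8051097 to 8265288), was higher at all 5 times. Its leading probe set gave 183.0 with no fracture and 573.5, 434.3, 712.9, 309.2 and 156.2 at the 5 fractured times in young rats. In adult rats it gave 11.7 with no fracture and 437.8, 316.4, 684.5, 367.1 and 356.4. In older rats it gave 16.6 with no fracture and 617.1, 175.3, 627.2, 240.7 and 403.5. On this probe set every age had a high value at 3 days, a lower value at 1 week and its highest value at 2 weeks. The log2 change was 3.68 (SE 0.7, adjusted p 0.0018) at 3 days, 2.79 (adjusted p 0.01) at 1 week, 4.01 (adjusted p 0.0017) at 2 weeks, 2.85 (adjusted p 0.017) at 4 weeks and 2.75 (adjusted p 0.024) at 6 weeks. The adult and older intact arrays are at the floor of 20, which sets the size of these changes: with a floor of 100 they were 2.13 at 3 days, 2.46 at 2 weeks, and 1.3 and 1.21 at 4 and 6 weeks, where the calls were lost (adjusted p 0.054 and 0.084). At 3 days its change was larger than that of Ptn with the floor of 20 (3.68 and 2.82) and smaller with the floor of 100 (2.13 and 2.79). The groups overlapped at 1 and 6 weeks because the older array at 1 week and the young array at 6 weeks lay below the young intact array. A second Cdh2 probe set followed the leading one (Pearson r = 0.97 over 18 arrays) and was called higher at all 5 times, with log2 changes of 1.86 to 2.95. It did not have the same peaks at each age. In young rats it gave 202.3 at 3 days and 207.6 at 1 week, without a dip. In older rats its highest value was at 3 days (295.6, against 290.3 at 2 weeks).

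Spon1, a secreted matrix protein that promotes outgrowth of some axons (chromosome 1, 177363526 to 177662689), was higher at every time. In young rats its signal was 119.4 with no fracture and 299.0, 366.6, 215.8, 280.4 and 262.0 at the 5 fractured times. The signal in adult rats was 135.5 with no fracture and 226.4, 760.9, 343.4, 507.0 and 367.8. The signal in older rats was 124.5 with no fracture and 212.1, 771.1, 575.8, 546.8 and 591.5. The 3 intact arrays were alike, all fractured arrays lay above them, and after 3 days the young rats were the lowest at each time. Spon1 averaged 633 ± 231 at 1 week and 127 ± 8.23 with no fracture (SD, n = 3 each). The log2 change of Spon1 was 0.94 (SE 0.32, adjusted p 0.036) at 3 days, 2.25 (adjusted p 4.7e-04) at 1 week, 1.47 (adjusted p 0.0053) at 2 weeks, 1.76 (adjusted p 0.0048) at 4 weeks and 1.61 (adjusted p 0.0088) at 6 weeks.

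Cntn2, a glycolipid-anchored adhesion molecule of axons (chromosome 13, 46497269 to 46528112), was the only one of the 7 lower at all 5 times. In young rats its signal was 403.4 with no fracture and 135.4, 165.8, 194.2, 186.8 and 296.3 at the 5 fractured times. Adult rats gave 603.2 with no fracture and 79.5, 147.8, 137.1, 205.1 and 262.6. Older rats gave 480.1 with no fracture and 123.6, 132.6, 143.5, 199.7 and 213.8. No fractured array reached the lowest intact array, and the values at 6 weeks were above those at 3 days in every age. The log2 change of Cntn2 was -2.15 (SE 0.22, adjusted p 4.2e-05) at 3 days, -1.72 (adjusted p 2.6e-04) at 1 week, -1.64 (adjusted p 4.0e-04) at 2 weeks, -1.31 (adjusted p 0.0034) at 4 weeks and -0.94 (adjusted p 0.017) at 6 weeks. Relative to no fracture the signal was 4.44-fold lower at 3 days and 1.91-fold lower at 6 weeks. The study's software scored this probe set as absent on all of its arrays, meaning that the matched probes did not stand clearly above their mismatch controls, so these folds are of a signal that was not separated from background. The erythroid sum, given above, also lay lower at 3 days to 2 weeks, and its part in the Cntn2 change was not tested. At 4 and 6 weeks the Cntn2 call was lost without the adult or without the older rats. Few of the 8740 probe sets were called there: 37 and 111 at 4 weeks, and 57 and 46 at 6 weeks.

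Gmfb, a small regulator of the actin cytoskeleton first known from glia (chromosome 15, 22549705 to 22560125), had a short peak and then a low level. In young rats its signal was 100.8 with no fracture and 369.9, 223.4, 98.0, 121.9 and 38.1 at the 5 fractured times. In adult rats it was 119.3 with no fracture and 419.4, 312.9, 193.4, 97.4 and 43.7. In older rats it was 148.2 with no fracture and 456.7, 249.4, 185.5, 210.7 and 76.4. Every age had its highest value at 3 days and its lowest at 6 weeks, and older rats were the highest with no fracture and at 3 days, 4 and 6 weeks. The log2 change was 1.77 (SE 0.26, adjusted p 3.4e-04) at 3 days and 1.1 (adjusted p 0.0069) at 1 week, then 0.33 (adjusted p 0.36) and 0.16 (adjusted p 0.72) at 2 and 4 weeks, and -1.27 (adjusted p 0.0094) at 6 weeks. Gmfb averaged 52.7 ± 20.7 at 6 weeks and 123 ± 23.9 with no fracture (SD, n = 3 each). The young and adult 6-week arrays had actin ratios of 2.72 and 2.27, above those of the other fractured arrays. Leaving both out leaves 1 array at 6 weeks, too few to judge a call there. With the actin ratio as a covariate 5 of the 7 genes were called at 6 weeks, 3 higher and 2 lower, as in the main fit.

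**Figure D2:**
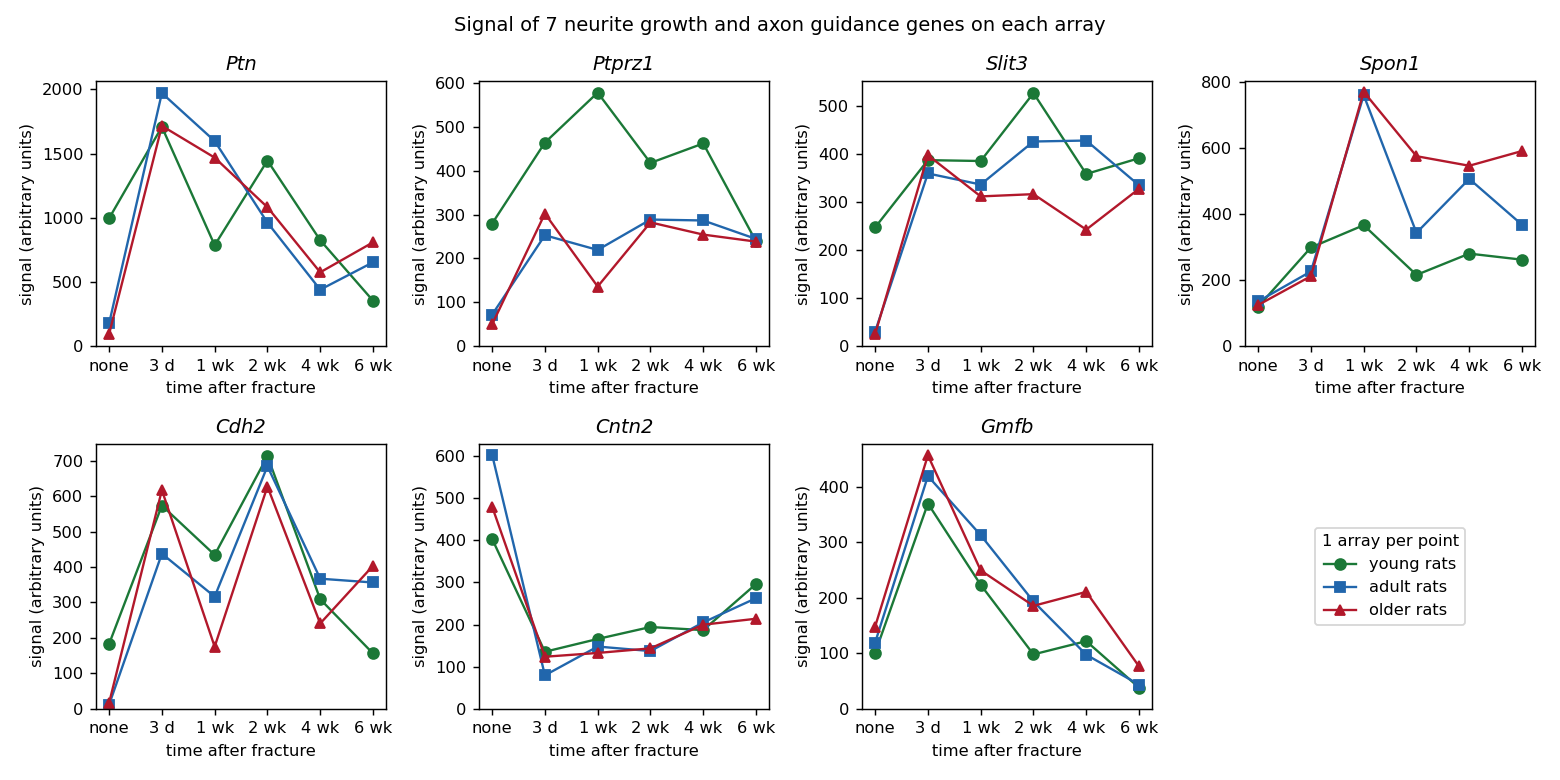
Signal (arbitrary units, linear axes from 0) of the leading probe set of each gene against time after fracture, with "none" for no fracture. Each point is 1 array of 2 pooled rats, and colours and symbols mark young, adult and older rats. Ptn and Gmfb peak at 3 days, Cdh2 has peaks at 3 days and 2 weeks, Spon1 peaks at 1 week, and Cntn2 is highest with no fracture.

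Over the 6 times together, limma's F test called Ptprz1, Cntn2, Slit3, Spon1, Cdh2 and Gmfb (adjusted p 1.6e-04 for Gmfb to 0.03 for Ptprz1), where 36.3% of all probe sets were called, and Ptn missed the threshold (adjusted p 0.054). In the order of each gene's levels, no 2 neighbouring fractured times differed for Ptn, Ptprz1, Slit3, Spon1, Cdh2, Cntn2 or Gmfb. Fractured times further apart did differ for Gmfb, where 2, 4 and 6 weeks were below 3 days (log2 change -3.04 at 6 weeks, adjusted p 5.4e-05) and 6 weeks was below 1 and 2 weeks, and for Cntn2, where 4 and 6 weeks were above 3 days (1.21 at 6 weeks, adjusted p 0.0034) and 6 weeks was above 1 week. Between neighbours, the steps that differed were those beside the intact femur. For Slit3, Spon1 and Cdh2 the lowest fractured time was above no fracture (adjusted p 0.011, 0.036 and 0.024), for Cntn2 no fracture was above 6 weeks (adjusted p 0.017), and for Gmfb no fracture was above 6 weeks (adjusted p 0.0094). Groups without overlap numbered 6 of 7 at 3 days, 4 at 1 week, 5 at 2 weeks, 3 at 4 weeks and 4 at 6 weeks, where the shares over all probe sets were 46.8%, 51.2%, 45.4%, 33.3% and 26.3%.

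Age was compared over all 6 times. None of the 7 genes was called for older against young rats, where 0.446% of all probe sets were called, or for adult against young rats, where 0.0801% were called. At an unadjusted p below 0.05, 1230 and 836 of the 8740 probe sets passed. Ptprz1 had the lowest p for older against young rats, with a median signal of 246 in older rats and 440 in young rats (n = 6 each) and a log2 change of -1.11 (95% interval -1.73 to -0.48, adjusted p 0.12). When only probe sets with a mean signal of 200 or more were tested, Ptprz1 passed (adjusted p 0.037). Spon1 went the other way, with a median of 561 in older rats and 271 in young rats and a log2 change of 0.7 (95% interval 0.2 to 1.19, adjusted p 0.19). For Gmfb the log2 change of older against young rats was 0.62 (95% interval 0.22 to 1.02, adjusted p 0.15).

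In the intact femur, where each age has 1 array, Slit3, Ptn, Cdh2 and Ptprz1 had wider gaps between ages. Slit3 was 25.0 in the older and 247.1 in the young intact femur, a log2 change of -3.31 (adjusted p 0.01, from the fit with age nested in phase, where 2.87% of all probe sets were called). An arm of 1 array has no spread of its own, so the p-values of this paragraph assume that intact arrays vary like those of the later phases, and the older Slit3 signal is near the floor. Ptn was 93.7 in the older and 995.9 in the young intact femur (log2 change -3.41, adjusted p 0.14), Cdh2 was 16.6 and 183.0 (-3.19, adjusted p 0.1) and Ptprz1 was 49.4 and 279.4 (-2.5, adjusted p 0.13). Spon1, Cntn2 and Gmfb lacked this gap, with log2 changes of 0.06, 0.25 and 0.56. The fibrous matrix sum was likewise 7093 in the older and 38514 in the young intact femur, and the bone matrix sum was 25306 and 95889. Their part in the gap was not tested. Older against young rats at 1 and 2 weeks gave log2 changes of 0.24 for Ptn, -0.52 for Slit3 and -0.75 for Cdh2. For Ptprz1 it was -1.33 (95% interval -2.39 to -0.26, adjusted p 0.36). Spon1 had the lowest p there, with a log2 change of 1.24 (95% interval 0.68 to 1.81, adjusted p 0.2). None of the 7 was called (0% of all probe sets called).

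The change with fracture was therefore also set against the intact array of the same age. For Slit3 it was 3.28 to 3.99 on the log2 scale in older rats and 0.54 to 1.09 in young rats. For Ptn it was 2.62 to 4.2 in older rats and -1.49 to 0.78 in young rats. For Ptprz1 it was 1.46 to 2.61 in older rats and -0.23 to 1.05 in young rats. The study lists Ptprz1 as up-regulated more in younger rats. Its test compared the signal at 1 and 2 weeks, which was also higher in young rats here. The fit over all 5 fractured times, chosen after seeing the data, called Slit3 and Ptn for older against young rats (2.94 and 3.64, adjusted p 0.0011 and 0.028, 3.2% of all probe sets called) and Slit3 and Cdh2 for adult against young rats (2.91 and 3.3, adjusted p 5.8e-04 and 0.039, 6.45% called). The age difference of Slit3 at 1 and 2 weeks exceeded that with no fracture by 2.78 (adjusted p 0.04, 2.22% of all probe sets called), and at 4 and 6 weeks by 2.9 (adjusted p 0.031, 3.02% called). Slit3 alone of the 7 was called in these last tests. These interactions rest on 1 intact array per age. With a floor of 100 the Slit3 values at these weeks were 0.78 and 0.9 and were not called (adjusted p 0.54 and 0.39). At 4 and 6 weeks, with 1.24% of all probe sets called, none of the 7 was called for older against young rats, the nearest being Spon1 (log2 change 1.07, adjusted p 0.089) and Gmfb (0.9, adjusted p 0.13).

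**Figure D3:**
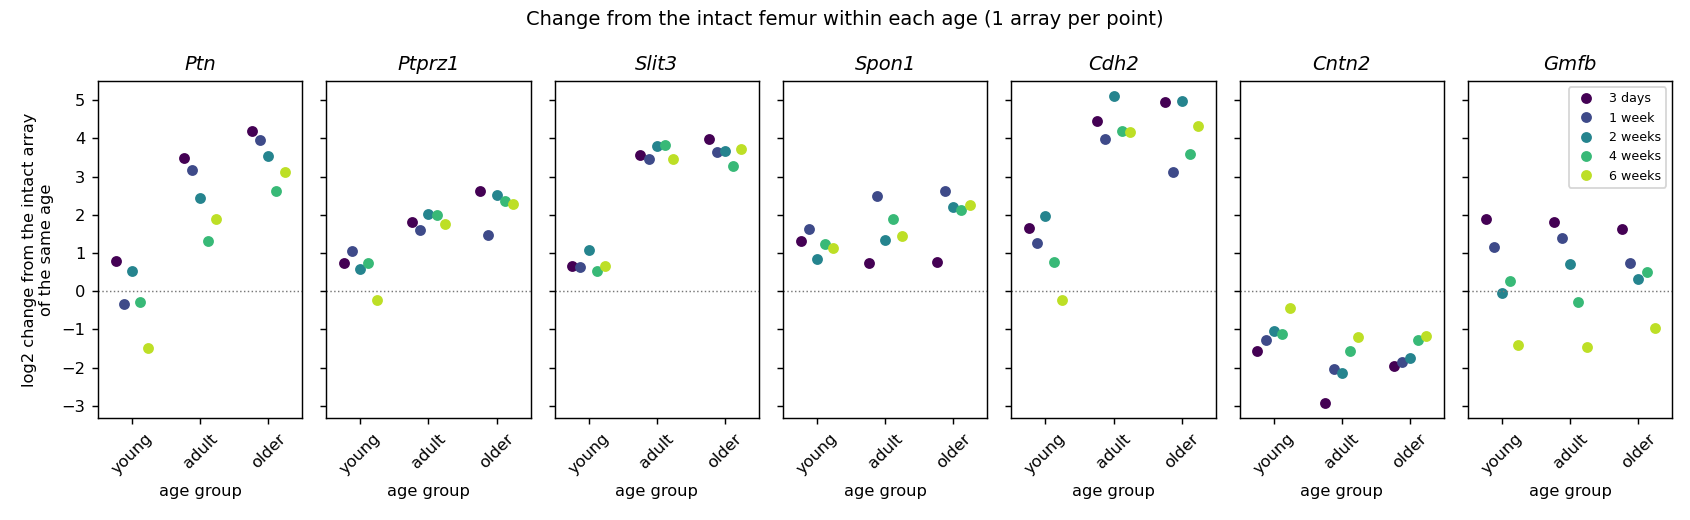
Log2 change of each gene from the intact array of the same age (vertical axis) in young, adult and older rats, with signals floored at 20. Each point is 1 fractured array and colours run from 3 days to 6 weeks. In young rats Slit3 lies between 0.54 and 1.09 and in older rats between 3.28 and 3.99, while Gmfb has a like course at the 3 ages.

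Partners of these genes were read from 7 lists. The lists were chosen with earlier results of these data known, so their counts are descriptions and not independent evidence. In the list of pleiotrophin partners and chondroitin sulfate proteoglycans, 14 of the 19 measured of 22 listed genes were called higher at 3 days, 12 at 1 week, 12 at 2 weeks, 10 at 4 weeks and 5 at 6 weeks, and 0 were lower, where 18.9%, 18%, 16.1%, 11.5% and 8.34% of all probe sets were called higher. Ptn and Ptprz1 are among the 19, and without them 12 of 17 were called higher at 3 days. Vcan, the proteoglycan versican, averaged 1381 ± 300 at 3 days and 147 ± 113 with no fracture (log2 change 3.49, adjusted p 2.8e-04). Tnc, the matrix glycoprotein tenascin C, had a log2 change of 3.15 at 3 days (adjusted p 0.0021). Sdc1 and Sdc2, transmembrane heparan sulfate proteoglycans, had changes of 2.45 (adjusted p 2.0e-04) and 2.32 (adjusted p 7.4e-05) at 2 weeks. Vcan and Tnc also belong to the fibrous matrix list. The median log2 change of the 19 genes was 1.19 at 3 days, against -0.08 for all probe sets.

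The 25 guidance cues and receptors measured, of 51 listed, had 7 called higher and 3 lower at 3 days and 2 each way at 6 weeks, near the shares of all probe sets (18.9% higher and 20.4% lower at 3 days, 8.34% and 7.11% at 6 weeks). The median log2 change was 0 at each of the 5 times. Robo2, a Slit receptor, was low throughout and averaged 74.4 ± 20.7 at 2 weeks and 24.6 ± 8.52 with no fracture (log2 change 1.48, adjusted p 0.0093), and Robo1 stayed at the floor. Nrp2, a semaphorin receptor, averaged 88.9 ± 8.92 at 2 weeks and 14.5 ± 7.27 with no fracture (log2 change 2.08, adjusted p 5.4e-05), a size set by the floor since 2 of the 3 intact signals were below 20. Gpc1, a heparan sulfate proteoglycan of the cell surface, averaged 5322 ± 340 at 3 days and 1276 ± 644 with no fracture (2.17, adjusted p 0.0011). Dpysl2, a semaphorin signalling protein, had a change of 1.44 at 3 days (adjusted p 0.0092). Its signals were low, at 48.9 to 90.8 at 3 days. With no fracture they were 22.5 (young), 39.1 (adult) and 8 (older, below the floor), so the floor bears on this size. Slit1, named after its values were seen, went opposite to Slit3 with a log2 change of -0.96 at 3 days (adjusted p 0.0013).

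Among 24 of 30 listed neural adhesion molecules of the immunoglobulin family, which include Cntn2, 4 were called higher and 4 lower at 3 days, no more than the 18.9% and 20.4% of all probe sets. Ncam1 averaged 590 ± 56.7 at 2 weeks and 160 ± 114 with no fracture (log2 change 2.37, adjusted p 0.015). Thy1, which stromal cells and lymphocytes of the rat also carry, had a change of 2.34 (adjusted p 0.0025) and Nptn of 1.49 (adjusted p 4.7e-04) at 1 week, while L1cam had -1.33 at 2 weeks (adjusted p 0.036). Of 6 measured spondins, thrombospondins and F-spondin partners, 5 were called higher and 1 lower at 3 days (18.9% and 20.4% of all probe sets). Comp, a cartilage matrix protein and a marker in the cartilage list, had a change of 3.91 at 1 week (adjusted p 8.1e-04), Thbs4 of 1.71 (adjusted p 0.01) and App, the amyloid precursor that F-spondin binds, of 1.08 (adjusted p 2.8e-04). Reln, a secreted guide of migrating neurons, had -1.39 at 6 weeks (adjusted p 0.02).

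Of 9 measured cadherins and catenins, 3 were called higher at 3 days and 4 at 1 and 2 weeks, where 18.9%, 18% and 16.1% of all probe sets were called higher. Beside Cdh2 these were Cdh22, with a change of 2.25 at 1 week (adjusted p 0.0028), Cdh16, with an intact mean below the floor and a change of 1.77 at 2 weeks (adjusted p 0.02), and Jup, plakoglobin, with 0.92 at 1 week (adjusted p 0.0061). Cdh8 was lower at 4 weeks (-1.19, adjusted p 0.034). Of 19 measured growth cone and cytoskeleton genes, Gmfb among them, 5 were called higher and 3 lower at 3 days, near the shares of all probe sets (18.9% and 20.4%). Nrgn, neurogranin, averaged 24.4 ± 10.3 at 2 weeks and 2055 ± 470 with no fracture (log2 change -6.31, adjusted p 9.3e-05), and Stmn1, which destabilises microtubules, had -1.89 at 1 week (adjusted p 3.2e-04). Mapt, the microtubule protein tau, had -1.12 (adjusted p 2.5e-04) and Rhoa, a small GTPase, 1.79 (adjusted p 1.3e-04) at 3 days. Gap43, the growth-associated protein of regrowing axons, was not called at any of the 5 times (log2 change 0.02 to 0.46) and was named after its values were seen.

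Of 16 measured neurotrophic factors and receptors, 2 were called higher and 5 lower at 3 days, where 18.9% and 20.4% of all probe sets were called. Serpine2, a protease inhibitor that promotes neurite outgrowth, averaged 3970 ± 816 at 2 weeks and 295 ± 267 with no fracture (log2 change 4.19, adjusted p 3.2e-04). Ndn, necdin, with an intact mean below the floor, had a change of 1.49 at 1 week (adjusted p 0.0027). The neurotrophin receptors Ngfr and Ntrk3 had changes of -1.62 (adjusted p 0.0038) and -1.45 (adjusted p 0.021) at 3 days. The Ngfr probe set is of a type that can read related sequences.

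**Figure D4:**
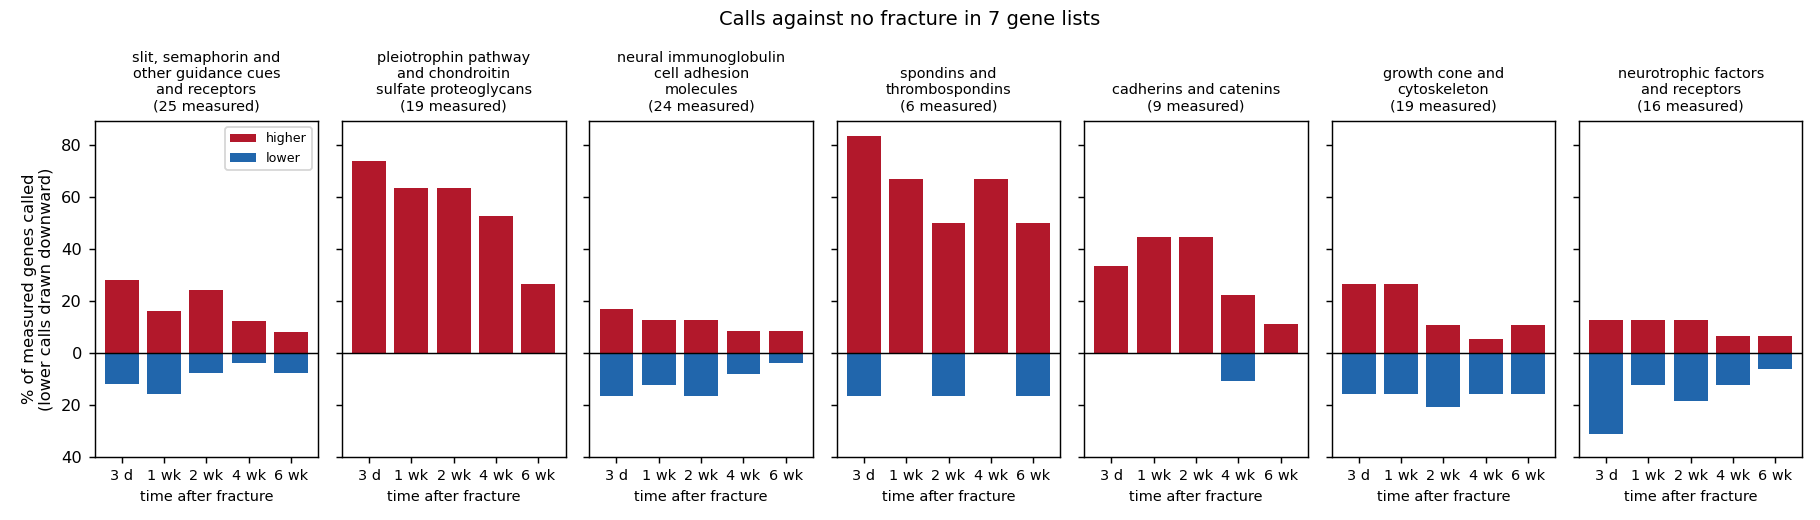
Percentage of the measured genes of each list called higher (red, upward) or lower (blue, drawn downward) than no fracture at the 5 times after fracture. The number measured is given above each panel, and members described above are included. The pleiotrophin and proteoglycan list has 14 of 19 genes higher and 0 lower at 3 days.

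Across the 18 arrays Slit3 and Cdh2 had the closest courses within the group (Pearson r = 0.93), but over the 15 fractured arrays r was 0.5. Over the fractured arrays the strongest relation was between Gmfb and Cntn2, which ran opposite (r = -0.89), followed by Ptn and Cntn2 (r = -0.82) and Ptn and Gmfb (r = 0.77). Ptn and its receptor Ptprz1 had r = 0.69 over the 18 arrays (Spearman's rho 0.34) and 0.01 over the fractured arrays. All of these share arrays and the time course and are descriptions. Among 4513 other genes, the courses most like each gene over 18 arrays were those of Pdpn, Ddr2 and Plod2 for Ptn (r = 0.96, 0.94 and 0.93), and Dlx5, Mmp16 and Fyn for Ptprz1 (r = 0.92, 0.9 and 0.89). For Cntn2 they were Epb41, Padi2 and Ppa2 (r = 0.95 each), and for Spon1 they were Hivep2, C1s and Medag (r = 0.94, 0.92 and 0.91). For Cdh2 they were Cgref1, Serpinh1 and Dlx5 (r = 0.96, 0.96 and 0.95), and for Gmfb Ift25, Tpp2 and Khdrbs1 (r = 0.9, 0.89 and 0.88). For Slit3 they were Col11a1, Col5a2 and Sptan1 (r = 0.98, 0.97 and 0.97). Over the fractured arrays their r with Slit3 was 0.63, -0.19 and 0.17, so the likeness of Col5a2 and Sptan1 rests on the intact arrays. Pdpn kept r = 0.94 with Ptn, and Epb41 r = 0.87 with Cntn2, over the 15 fractured arrays.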

How the data were processed

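Each array was deposited as 1 signal intensity per probe set, which the authors obtained from Affymetrix Microarray Suite 5.0 after scaling to a target of 500. Of 8799 probe sets, 59 controls were left out and 8740 tested. The platform annotation names 1 gene for 7006 probe sets, several for 308 and none for 1426. A gene's leading probe set is the one with the highest mean log2 signal. Signals were floored at 20, and their log2 was modelled as the sum of a time and an age effect in limma 3.58.1 under R 4.3.3 (10 residual degrees of freedom). Age nested in phase was a separate fit (4 residual degrees of freedom). P-values were Benjamini-Hochberg adjusted over all 8740 probe sets, with 0.05 as the threshold. The procedure was tested on simulated data. Coordinates and promoters are from RefSeq, GRCr8. The members and lists were chosen with earlier results of these data known. From each list up to 4 further genes with the largest called change are named, and for each of the 7 genes the 3 with the highest Pearson r. Each array is a separate pool of rats, but no age and time has more than 1. The p-values of the additive fit therefore set each change between times or ages against how far the ages differ in their course over time. The number of arrays limits the precision. Detection calls were not used here, and 0 columns of the table were left unused. The alternatives are given at the end. The term for age by fracture over all 5 fractured times, and leaving out the young and adult 6-week arrays, were chosen after seeing the data.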

Additional observations from a re-analysis of the deposited data

Results flagged for a closer look

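The change with fracture differed between ages for Slit3, Ptn or Cdh2 in fits of the difference itself, in which each age has 1 intact array and the fractured arrays supply the spread. The study, with more arrays per age and time, lists these genes among those up-regulated to a similar extent at all its ages. For Slit3 the older-minus-young difference at 1 and 2 weeks exceeded that with no fracture by 2.78 on the log2 scale (adjusted p 0.04), and at 4 and 6 weeks by 2.9 (adjusted p 0.031). In the fit over all 5 fractured times, chosen after seeing the data, the excess over no fracture was 2.94 for Slit3 in older against young rats (adjusted p 0.0011) and 2.91 in adult against young rats (adjusted p 5.8e-04). In the same fit it was 3.64 for Ptn in older against young rats (adjusted p 0.028) and 3.3 for Cdh2 in adult against young rats (adjusted p 0.039). Over all probe sets 3.2% were called for older and 6.45% for adult against young rats. For adult against young rats the Ptn value was 2.62 (adjusted p 0.07), and for older against young rats the Cdh2 value was 3.12 (adjusted p 0.079). The second Cdh2 probe set gave 2.57 (adjusted p 0.04) in older and 2.1 (adjusted p 0.055) in adult against young rats. With a floor of 100, log2(signal + 50) or the actin covariate, 0 genes were called at 1 and 2 weeks or at 4 and 6 weeks. Over all 5 fractured times a floor of 100 left 1 gene called for older and 0 for adult against young rats. Each of these values rests on the single young intact array, whose fibrous and bone matrix sums were also high. The part of that array was not tested.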

How the results depend on the processing

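Of 460 values of single genes at the 5 times under the alternatives, 335 kept their direction and side of the threshold, 117 lost the call, 7 gained it and 1 changed sign. Of 376 values for the age comparisons 350 were kept, 11 lost the call, 7 gained it and 8 changed sign. Leaving out an age gave 2 to 6 genes called at 3 days and at 1 week, 1 to 6 at 2 weeks and 0 to 6 at 4 and 6 weeks, with 1742 to 2776, 1051 to 2684, 884 to 2458, 37 to 2011 and 46 to 1636 of all probe sets, where all ages gave 3437, 3126, 2868, 1855 and 1350. With the arrays of the times compared alone, 1 gene was called at 3 days (Gmfb) and 0 at the other times, of 902, 356, 0, 0 and 0 probe sets in all. With the actin covariate the counts were 2, 2, 1, 1 and 5 at the 5 times, of 1181, 1022, 679, 180 and 1205 probe sets. A t-test of the 3 fractured against the 3 intact arrays, on the signal without log2, was also run. At p below 0.005 it called 3, 1, 1, 0 and 0 genes at the 5 times, of 1021, 1073, 857, 369 and 248 probe sets. After Benjamini-Hochberg it called the same numbers of genes, of 1239, 1346, 831, 3 and 2 probe sets. It is not the study's own test. The study set 0.005 for its software's comparison of fractured with unfractured samples, and its t-tests over time pooled more arrays per time. At 6 weeks a floor of 100 left 3 genes, of 1160 probe sets. Leaving out the young and adult 6-week arrays leaves 1 array at that time, so its calls are not given. Testing probe sets with a mean signal of 200 or more left 2056 calls at 1 week and gave 1 gene for older against young rats.

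For older against young rats 39 probe sets were called, and 64 with median centring, 8 with a floor of 100, 76 with log2(signal + 50), 135 with the filter, 4 with the actin covariate, 0 without the time term and 2 to 30 without 1 time. For adult against young rats it was 7, and 2 with quantile normalization, 0 with a floor of 100, 3 with the actin covariate, 0 without the time term and 0 to 12 without 1 time. The interactions at 1 and 2 weeks and at 4 and 6 weeks called 0 genes with a floor of 100, log2(signal + 50) or the actin covariate, and 2 and 3 with the filter. There log2(signal + 50) gave 99 and 174 probe sets in place of 194 and 264, and the actin covariate 112 at 4 and 6 weeks. Over all 5 fractured times a floor of 100 called 1 gene for older and 0 for adult against young rats, and quantile normalization and log2(signal + 50) called 1 each for adult against young rats. There log2(signal + 50) gave 129 and 247 probe sets in place of 280 and 564, and the filter 208 for adult against young rats.

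The values that changed sign were all small and not called. Leaving out an age put Gmfb at 4 weeks between -0.01 (without older rats) and 0.39. Leaving out a time put Ptn between -0.69 and 0.23 for older and between -0.58 and 0.12 for adult against young rats, and Cdh2 between -0.77 and 0.11 for adult against young rats, each positive value being that without the intact arrays. The Gmfb interaction was 0.01 at 1 and 2 weeks with log2(signal + 50), -0.16 at 4 and 6 weeks with a floor of 100, and -0.1, -0.11 and -0.13 over all fractured times with quantile normalization, median centring and a floor of 100. The cause of these shifts was not tested. No paired analysis was possible because all arrays carry the same series number in the labels, while age, which the arrays of different times share, is already a term of the fit.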
